A study of Homo sapiens with 26 samples.

Results

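Exons found both in a leukaemia line and in a glioblastoma line among the RNAs that came down with EZH2 are the subject here. The starting point was the authors' list of exons that yielded EZH2-bound small RNA in K562, a chronic myeloid leukaemia line. An exon was taken as a member where it shared at least 1 bp with an exon of the corresponding list of T98G or U87MG, both glioblastoma lines. Members were thus chosen by the authors' enrichment calls. The rule selected 182 of 397 K562 exons (45.8%), carrying 180 of 384 K562 gene symbols, out of 3022 exons and 2361 symbols in the 3 lists together. Of these, 78 exons (75 genes; 19.6% of K562 exons) stood in all 3 lists, 103 exons (105 genes) in K562 and T98G, and 1 exon in K562 and U87MG. BRWD1 has an exon in each of the first 2 classes. The sizes of these classes therefore are a description and carry no test.

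EZH2 is the catalytic subunit of Polycomb repressive complex 2 (PRC2), which methylates histone H3 at lysine 27 and keeps developmental genes silent. PRC2 also binds RNA with little sequence preference in many cell types. Small RNA sequencing after immunoprecipitation is therefore used to ask which transcripts touch the complex. In the small RNA kit used here, an adapter is joined to the 3′ end of each RNA, and the primer for reverse transcription anneals to that adapter. A primer that anneals instead to a cellular RNA with similar bases gives a read that ends next to those bases, which is called mispriming and which the title of the series names as its question.

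The small RNA libraries came from untreated cells, from a pellet left after hypotonic, digitonin and dounce lysis, and products of 20 to 50 bases were size selected. Each line had an EZH2 antibody, an IgG2a control antibody and an input without antibody, with 1 library of each in K562 and 2 of each in T98G and in U87MG. A list of full-length RNA targets in T98G is named under an iCLIP library of EZH2, a method that crosslinks RNA to protein before precipitation. T98G also had 6 long RNA libraries, 2 each with the EZH2 antibody, with IgG and without antibody. Which of these T98G libraries the full-length list rests on was not examined here. A table of changed genes compares U87MG cells given siRNA against EZH2 with cells given siRNA against GFP, 2 libraries each, and the second EZH2 library has a treatment label that reads EZH3. A list of retained introns in U87MG, described by its name as proximal to EZH2 seRNA, is given under the same second library. All deposited files are lists without values for single libraries, so neither read depth nor replicate spread can be given for any call. Intervals below are 95% Wilson intervals and cover counting error over exons or genes alone.

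The line labels could be checked only through listed exons, which is a weak check because the lists hold enriched exons and no expression levels. Of 10 erythroid markers expected in K562, 0 had an exon in any list. Of 10 glioblastoma and glial markers, CD44 was listed in K562 and T98G, EGFR in T98G, and TNC in T98G and U87MG. CD44, a hyaluronan receptor that glioblastoma cells often carry, is thus itself a member, with 1 exon of 946 bp.

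Some of the members carry the adapter's bases in their own sequence next to the place where the T98G reads pile up. For each T98G exon the authors gave a signed distance, which was read as the offset between the middle of the exon and the middle of the read peak. The peak middle could be placed for 180 of the 181 members in the T98G list. The following windows run from 15 bases before to 30 bases after that middle, on the strand of the RNA, in GRCh37 (hg19). Position 1 is the first base after the middle, which is the base numbered 16 from the left. Capitals mark the bases identical to the adapter's 12 leading bases, at the best ungapped placement that starts between positions 11 and 15. The adapter begins with AGATCGG and its bases 7 to 12 are GAAGAG.

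The first set holds windows that are coding throughout and have the longest exact match from the adapter's first base.
ABCC4: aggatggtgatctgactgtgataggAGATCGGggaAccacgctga
SF3B1: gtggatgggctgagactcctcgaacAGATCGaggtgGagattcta
PHF2: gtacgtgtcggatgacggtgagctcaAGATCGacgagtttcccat
NFATC3: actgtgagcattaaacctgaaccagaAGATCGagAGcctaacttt
SPTLC1: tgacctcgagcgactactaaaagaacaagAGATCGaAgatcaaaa
UBR4: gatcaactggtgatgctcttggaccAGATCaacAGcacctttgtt
MACF1: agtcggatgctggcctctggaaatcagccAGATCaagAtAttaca
VPS54: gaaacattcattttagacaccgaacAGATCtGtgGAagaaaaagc

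ABCC4, a transporter that pumps cyclic nucleotides and drugs out of cells, matched 7 adapter bases without a break, at chr13:95830285-95830329 on the minus strand. The window of SF3B1, the splicing factor that helps recognise the branch point, lies at chr2:198273243-198273287 on the minus strand and matched 6. PHF2, a histone demethylase, matched 6 at chr9:96428064-96428108 on the plus strand.

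The second set holds coding windows with 10 identical bases of 12, many of them interrupted, and was chosen after the sequences had been seen.
FAM178A: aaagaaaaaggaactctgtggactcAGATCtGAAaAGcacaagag
NXF1: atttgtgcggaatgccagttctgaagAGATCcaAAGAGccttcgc
ARID4B: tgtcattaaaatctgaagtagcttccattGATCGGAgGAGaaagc
MRPL42: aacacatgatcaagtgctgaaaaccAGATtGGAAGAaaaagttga
TMX1: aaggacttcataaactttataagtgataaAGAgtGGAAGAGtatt

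In TMX1, a thioredoxin of the endoplasmic reticulum, the longest unbroken stretch is the far end of the 12 bases. The 30 bases around the TMX1 peak occur in 2 places of the genome, so the origin of its reads is uncertain.

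The third set shows, for contrast, coding windows with 4 identical bases of 12, the lowest number among the members, and below them the window of EZH2 itself.
IPO7: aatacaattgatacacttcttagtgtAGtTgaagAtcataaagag
CDC42BPB: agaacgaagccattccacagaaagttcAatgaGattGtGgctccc
EZH2: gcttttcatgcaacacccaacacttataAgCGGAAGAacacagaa

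The EZH2 member is exon 9 of 20, 92 bp, coding throughout, at chr7:148516688-148516779 on the minus strand. Its window (chr7:148516736-148516780) reaches 1 base past the exon and carries 8 identical bases of 12, including an unbroken run from the middle of the adapter. It was listed in K562 and T98G and not in U87MG.

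Over the members, 60 of 180 (33.3%, interval 26.9 to 40.5%) had AGAT, the adapter's first 4 bases, starting at positions 11 to 15. The share was 32 of 78 (41%, interval 30.8 to 52.1%) for exons in all 3 lists and 28 of 102 (27.5%, interval 19.7 to 36.8%) for exons in K562 and T98G. In the same 5 positions moved 20 bases downstream it was 4 of 180 (2.22%, interval 0.867 to 5.57%). The sign of the authors' distance was settled with the same motif: with the other sign 7 of 180 (3.89%) had it in the window. T98G exons that were not in the K562 list gave 575 of 2283 (25.2%). The interval of the exons in all 3 lists lies above that share, and the interval of the exons in K562 and T98G includes it. Exons in T98G and U87MG but not in K562 gave 98 of 346 (28.3%, interval 23.8 to 33.3%). That interval overlaps the interval of the exons in all 3 lists. No test of these differences was made.

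The starts were concentrated at positions 11 and 12. At position 11, AGAT started in 19 of 78 exons in all 3 lists (24.4%), in 13 of 102 exons in K562 and T98G (12.7%) and in 189 of 2283 T98G exons outside K562 (8.28%). At position 12 it started in 7 of 78 (8.97%), 8 of 102 (7.84%) and 178 of 2283 (7.8%). Away from the window the mean share per position was 0.533% over 50 positions for the members. Longer exact matches became rarer: at least 5 adapter bases in 32 of 180 members (17.8%), at least 6 in 10 (5.56%) and 7 in 4 (2.22%), namely ABCC4, MTMR14, CTAGE5 and ZC3HAV1. MTMR14 is a phosphoinositide phosphatase and ZC3HAV1 an antiviral protein that binds CpG-rich RNA. The windows of MTMR14, CTAGE5 and ZC3HAV1 did not lie wholly in coding sequence of the exon and are not printed.

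**Figure D1:**
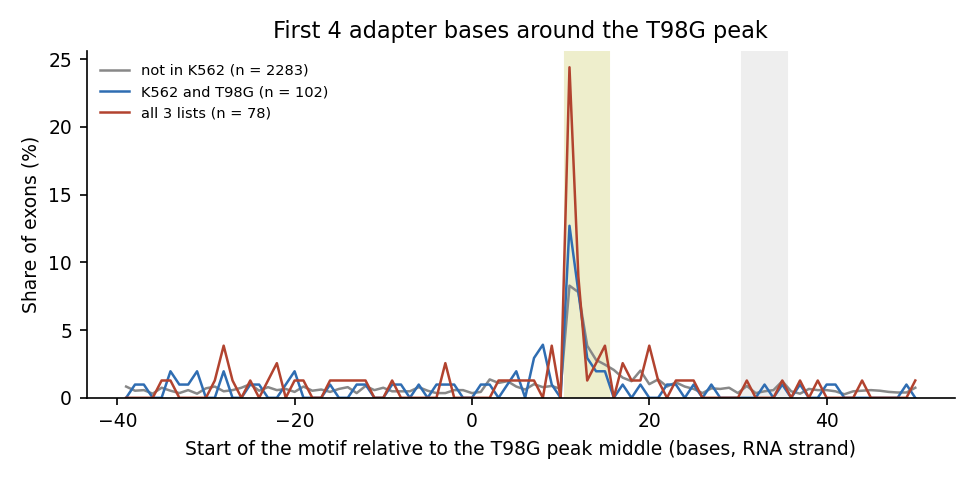
Share of T98G exons (%, vertical axis) in which AGAT, the first 4 adapter bases, starts at each position relative to the peak middle (bases on the RNA strand, horizontal axis), with 1 line for each class. The band at positions 11 to 15 is the window counted in the text and the band at 31 to 35 its control. At position 11 the lines reach 24.4% for all 3 lists, 12.7% for K562 and T98G, and 8.28% for T98G exons not in K562.

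Exons without the exact 4 bases often had a broken match. At least 8 of the 12 adapter bases were identical in 59 of 180 members (32.8%, interval 26.3 to 39.9%), and in 4 of 180 (2.22%) in the control window. Among the 120 members without AGAT, 41 (34.2%, interval 26.3 to 43%) still had at least 8 identical bases, against 3 of 120 (2.5%) in the control window. GAAGAG, bases 7 to 12 of the adapter, lay in register in 25 of 180 members (13.9%) and in 1 of 180 control windows (0.556%). Between the classes, at least 8 identical bases were found in 39 of 102 exons in K562 and T98G (38.2%, interval 29.4 to 47.9%) and in 20 of 78 exons in all 3 lists (25.6%, interval 17.3 to 36.3%). Those intervals overlap, and their order depends on the number of bases asked for. At least 7 were identical in 51% of exons in K562 and T98G and in 55.1% of exons in all 3 lists, and at least 9 in 14.7% and 14.1%. At the level of 8 bases, T98G exons not in K562 stood at 585 of 2277 (25.7%). The 12-base comparison was chosen after the members' sequences had been seen.

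**Figure D2:**
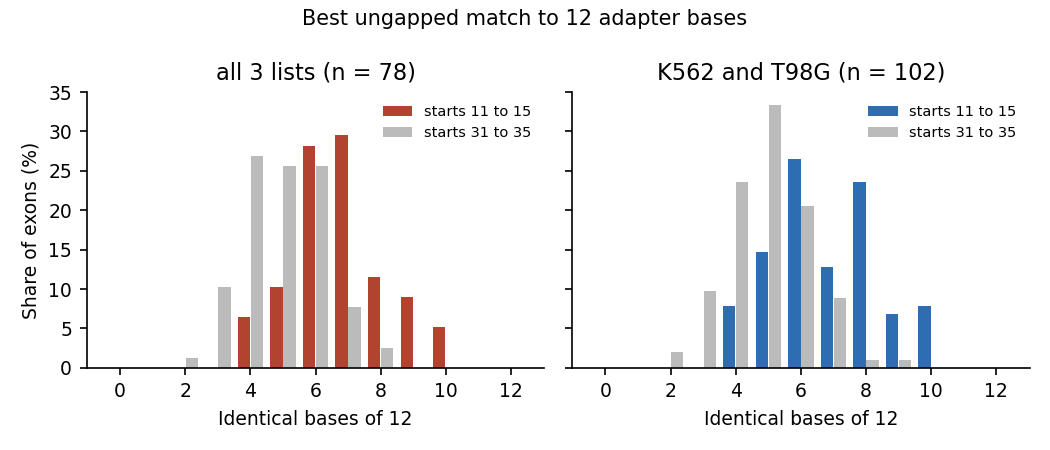
Share of members (%, vertical axis) by the number of bases identical to 12 adapter bases (horizontal axis), for exons in all 3 lists (left) and in K562 and T98G (right). Coloured bars are the best placement starting at positions 11 to 15 and grey bars the best at 31 to 35; the median is 7 identical bases in the first and 5 in the second for both classes.

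Over whole exons, the adapter's first 6 bases (AGATCG) occurred on the RNA strand of 17 of 182 members (9.34%) and on the opposite strand of 1 (0.549%). T98G exons not in the K562 list had them in 257 of 2392 (10.7%) and 76 (3.18%). K562 exons in no glioblastoma list had them in 14 of 215 (6.51%) on the RNA strand and 4 (1.86%) on the other. Peak positions in K562 and in U87MG were not analysed here, so what the exons carry next to the reads is known from T98G alone.

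The member outside T98G is exon 12 of 18 of CCDC136, a coiled-coil protein, at chr7:128450193-128450420 on the plus strand, 228 bp and coding throughout. It is printed whole because it is the single exon shared by K562 and U87MG alone, with AGAT in capitals.
CCDC136: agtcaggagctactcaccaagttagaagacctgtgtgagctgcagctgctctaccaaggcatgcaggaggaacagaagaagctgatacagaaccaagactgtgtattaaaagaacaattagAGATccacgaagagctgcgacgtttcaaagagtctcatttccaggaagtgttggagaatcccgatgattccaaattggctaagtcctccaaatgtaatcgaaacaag

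AGAT occurs 1 time in it. No peak position came with this exon, so the distance of that site from the reads is not known.

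The members were largely protein-coding, internal exons. Of 182, 117 (64.3%, interval 57.1 to 70.9%) were coding throughout, 54 were partly coding, and 171 (94%, interval 89.5 to 96.6%) had at least 1 coding base. For K562 exons in no glioblastoma list, 85 of 215 (39.5%, interval 33.2 to 46.2%) were coding throughout and 186 (86.5%, interval 81.3 to 90.4%) had a coding base. In all 3 lists the share coding throughout was 57 of 78 (73.1%), and in K562 and T98G it was 59 of 103 (57.3%). Internal exons of the canonical transcript made up 155 of the 182 (85.2%) and 141 of the 215 (65.6%). Exons in T98G and U87MG and those in U87MG only were closer to the members: 81% and 83.3% were internal, and 64.4% and 67% coding throughout. The 2035 exons in T98G only stood lower, with 73.3% internal and 53.4% coding throughout. First exons numbered 2, in AGAP3 and the pseudogene transcript RP11-313P13.4.

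**Figure D3:**
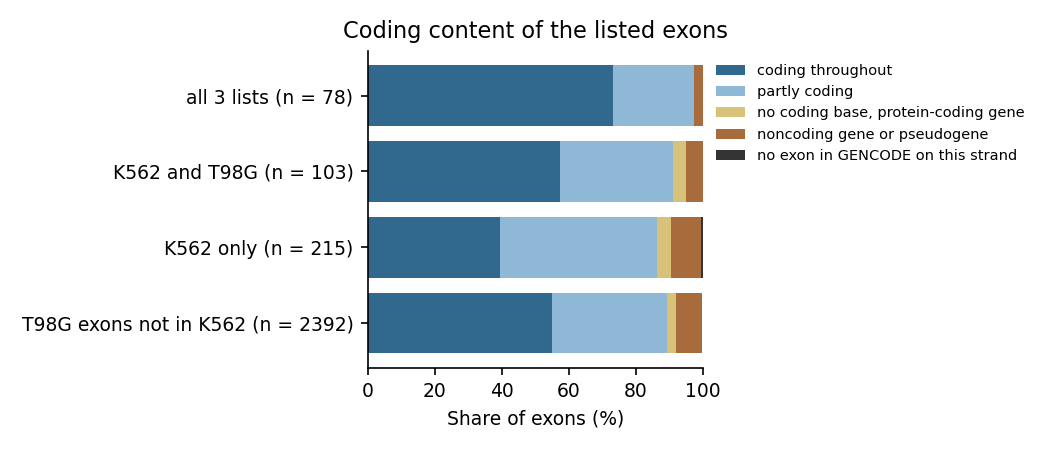
Share of exons (%, horizontal axis) by coding content in GENCODE 44, for the 2 main classes of members and for K562 and T98G exons outside them (rows, with the number of exons). The share coding throughout is 73.1% in all 3 lists, 57.3% in K562 and T98G, 39.5% in K562 only and 55% in T98G exons not in K562.

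Annotated genes for small RNAs were found in K562 exons outside the members. Of the 182 members, 0 held an annotated small nucleolar RNA, microRNA, Y RNA, 7SK or 7SL gene on their strand, which allows a share of up to 1.65% when 0 is read as at most 3 exons of 182, and up to 2.07% by the Wilson interval. Over all listed exons it was 23 of 3022 (0.761%), and over T98G exons not in K562 it was 9 of 2392 (0.376%), so 0 among the members is near those shares. Of the 215 exons listed in K562 alone, 13 (6.05%) did. They include SNORD99, SNORD63, SNORA80 and the 2 host exons of RPL23A with SNORD42B and with SNORD42A and SNORD4B, which guide modification of ribosomal RNA, and the microRNA entries MIR720 and MIR2277.

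Median width was 165 bp in all 3 lists and 177 bp in K562 and T98G, 168 bp over all, against 227 bp for K562 exons in no glioblastoma list and 187 bp for all T98G exons. Exons in T98G and U87MG but not in K562 had a median of 171 bp, and those in U87MG only 156 bp, so the members' width is not particular to them. The narrowest were POLR3D (46 bp), a subunit of RNA polymerase III, PRPF38A (49 bp), a splicing factor, and CAPRIN1 (53 bp), a stress granule protein. The widest were NASP (3949 bp), a histone chaperone, BRD3 (3401 bp), a reader of acetylated histones, and B3GNTL1 (3070 bp). Median GC content was 42.7% against 47.3% for K562 exons in no glioblastoma list. It was 44.1% for all T98G exons and 44.6% for exons in T98G and U87MG but not in K562. The canonical transcript had a median of 23 exons for members in all 3 lists and 15 for those in K562 and T98G. The median was 14 for the K562 exons left out and 18 for all T98G exons. For exons in T98G and U87MG but not in K562 it was 23.5, and for those in U87MG only 23, near the value in all 3 lists.

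Some members have near copies elsewhere. For 9 of the 180 members with a placed peak (5%), the 30 bases around it occur more than once in the genome, and which copy gave the reads is uncertain. They are HNRNPK, FAM21A, DOCK11, ANKRD36C, TMX1 and the transcripts RP11-313P13.4, RP11-324H6.5, RP11-396K3.1 and RP11-563H6.1, with 2 to 13 copies each.

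Each shared exon was the same annotated exon in each list. All 260 pairs between a K562 exon and a glioblastoma exon, 181 with T98G and 79 with U87MG, had identical ends on the same strand, and the smallest shared stretch was the whole 46 bp of the POLR3D exon. Just outside the rule lay exons of the same gene: an RBM23 exon 18 bp from a T98G exon, a PAXBP1 exon at 86 bp, a FUBP1 exon at 122 bp and a GANAB exon at 123 bp. Another exon of the gene was in a glioblastoma list for 54 of the 215 K562 exons left out (25.1%).

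With the distance subtracted from the exon middle, peaks lay toward the 5′ end of the members. With the other sign they would be mirrored toward the 3′ end. The T98G peak middle was in the first 33.3% of the exon's length, or just upstream of it, for 83 of 180 members (46.1%, interval 39 to 53.4%). It was in the last 33.3% for 36 (20%, interval 14.8 to 26.4%). Of the 180 peak middles, 5 lay outside the exon, all upstream and all in K562 and T98G: USP49, CAPRIN1, SNAPC1, KIF11 and TOP3B. In every class, a peak outside the exon was counted in the nearest stretch. T98G exons not in K562 were even, with 740 of 2283 (32.4%, interval 30.5 to 34.4%) in the first stretch and 767 (33.6%) in the last. The first stretch held 33 of 78 peaks of exons in all 3 lists (42.3%) and 50 of 102 of those in K562 and T98G (49%). The median peak stood at 35.2% of the exon's length for members and 51.3% for the others. The share was similar at each width: the first stretch held 24 of 50 peaks (48%) in members up to 120 bp, 29 of 66 (43.9%) in those over 120 and up to 250 bp, and 30 of 64 (46.9%) above 250 bp. Among internal members coding throughout it was 47 of 113 (41.6%), against 383 of 1298 (29.5%) for like exons outside K562. This pattern was noticed in the data, and no test of it was made.

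**Figure D4:**
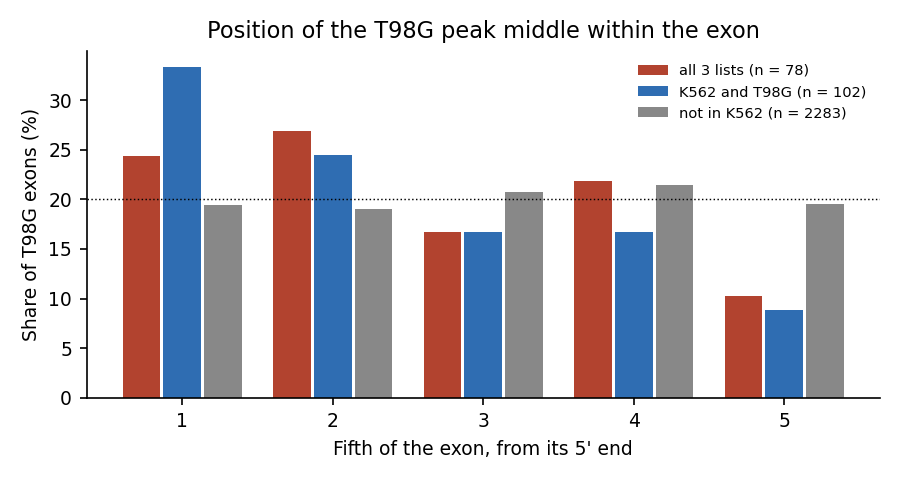
Share of T98G exons (%, vertical axis) whose peak middle falls in each of 5 equal parts of the exon counted from its 5′ end (horizontal axis), by class; the dotted line marks 20%, an even spread. The bars nearest the 5′ end hold 24.4% for all 3 lists and 33.3% for K562 and T98G against 19.4% for T98G exons not in K562, and those nearest the 3′ end 10.3%, 8.82% and 19.5%. Peak middles outside the exon are counted in the nearest part. The direction rests on subtracting the authors' distance from the exon middle.

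Few genes gave more than 1 shared exon. They were UBR4, MACF1 and FAM178A (SLF2 in current naming), with 2 exons each in all 3 lists, and BRWD1, with 1 in all 3 lists and 1 in K562 and T98G. UBR4 is a giant ubiquitin ligase that recognises protein ends, MACF1 links actin to microtubules, FAM178A acts in DNA repair and BRWD1 reads histone marks. UBR4 had 3 exons listed in K562, 7 in T98G and 4 in U87MG, and its shared exons are exons 64 and 95 of 106. MACF1 had 3, 9 and 8, and its shared exons are exons 49 and 73 of 101. The shared exons of BRWD1, exons 6 and 13 of 41, are both 99 bp wide.

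Most genes with a shared exon had no other in T98G, but multi-exon genes were frequent. Of the 180 genes, 74 (41.1%) had 2 or more T98G exons, against 420 of 2046 genes (20.5%) in the T98G list. ATM, the kinase that signals DNA breaks, and USP24, a deubiquitinase, had 6 each in T98G and 2 each in U87MG. ABCC4, DST, DYNC1H1 and HERC1 had 5 each in T98G. A gene with more listed exons can meet the membership rule at more places, so this difference is not independent of the rule.

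By function the members were spread over many roles, and 82 of the 180 genes fell in at least 1 of 12 lists built from gene symbols. These functional lists are partial, so each count below is of list members and can miss genes with the same role. SMYD3, PHC3 and SS18 are not in the chromatin list. IKBKB is not in the kinase list, and RFWD3 and UBE4B are not in the ubiquitin list. The chromatin regulator list had 8 members: PHF2, BRD3, NCOR1 and BRWD1 in all 3 lists, and ARID4B, EZH2, SMARCA2 and PHF21A in K562 and T98G. That is 4.44% of the 180 genes, with 69 of 2361 (2.92%) over the 3 lists. NCOR1 is a scaffold that recruits histone deacetylases, SMARCA2 an ATPase that remodels nucleosomes, and PHF21A part of a complex that removes histone methylation. EZH2 was the 1 PRC2 subunit among the members (0.556%, with 0.169% over the 3 lists).

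The cell cycle, chromosome segregation and DNA repair list had 14 members (7.78%), with 59 of 2361 genes (2.5%) over the 3 lists. They include ATM, MCM7 (a helicase subunit of DNA replication), POLA2 (a primase partner), PDS5A and STAG2 (both cohesin), CENPA (the histone of centromeres), KIF11 (the spindle motor) and TOP3B (a topoisomerase). The list was matched by symbol, and CDC42BPA and CDC42BPB (kinases of the cytoskeleton), CDC42SE2 (a small GTPase effector) and MCM3AP (an mRNA export factor) entered by the start of their names. CCNL1 and CCNY are cyclins by name, and CCNL1 acts in splicing. Without the 4 genes that entered by the start of their names, the count is 10, which still holds CCNL1. The 59 genes over the 3 lists were not pruned in this way, so the 10 cannot be set against them.

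The ubiquitin list had 10 members (5.56%, with 4.19% over the 3 lists), UBR4, USP24, UBA6, MARCH6, NEDD4 and TRIM37 in all 3 lists. UBA6 activates ubiquitin, and the others attach or remove it. The kinase and phosphatase list also had 10 members (5.56%, with 3.85% over the 3 lists), of which 8 were in all 3 lists, among them HIPK1, LATS1, PTPRJ and MAPKAPK5. LATS1 is the Hippo pathway kinase that restrains growth. Membrane traffic and small GTPase regulators numbered 10 as well (5.56%, with 4.83% over the 3 lists), including VPS54 and VPS39, which tether vesicles, SEC31A, a coat protein of vesicles leaving the endoplasmic reticulum, and RABEP1, ASAP3 and DOCK11.

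RNA helicases, splicing and translation factors numbered 9 (5%), below the 5.93% over the 3 lists. SNRNP200 unwinds the spliceosome's RNAs, SF3B1 recognises the branch point, HNRNPK binds C-rich RNA, IARS charges isoleucine tRNA and NXF1 exports mRNA; these are in all 3 lists, and PRPF38A is among those in K562 and T98G. Transporters and import factors numbered 8 (4.44%, with 3.26% over the 3 lists), with NUP98 and the importins IPO7 and IPO5 in all 3 lists and SLC7A11, the cystine importer, in K562 and T98G. The cytoskeletal list had 6 members (3.33%, with 1.99% over the 3 lists), MACF1, DST, VCL and DYNC1H1 in all 3 lists and KIF5B and KIF11 in K562 and T98G. Zinc finger genes and centrosome genes numbered 4 each (2.22%), with 1.69% and 2.37% over the 3 lists. The adhesion list had 3 members (1.67%, with 1.99% over the 3 lists), of which SDCCAG8 entered by its name alone. CCDC136 entered the centrosome list by its name in the same way. These counts are descriptions over symbols, and no enrichment was tested.

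The share of members inside full-length EZH2 targets of T98G was near the background. By position, 20 of 182 fell inside such a target (11%, interval 7.23 to 16.4%), with a background of 12.5% over all listed exons and 12.6% over K562 exons. The share was 13 of 78 (16.7%, interval 10 to 26.5%) in all 3 lists and 7 of 103 (6.8%, interval 3.33 to 13.4%) in K562 and T98G, and those intervals overlap. In all 3 lists the genes were UBR4, with both exons, SNRNP200, SF3B1, MCM7, AGAP3, IARS, DDB1, NXF1, ATM, SBNO1, DYNC1H1 and ZC3H7B. In K562 and T98G they included CTNNB1. CTNNB1 encodes beta-catenin, the effector of Wnt signalling, and DDB1 an adaptor of ubiquitin ligases.

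After siRNA against EZH2 in U87MG, 24 of the 180 genes (13.3%, interval 9.13 to 19.1%) were in the authors' deposited table of changed genes. The background was 9.83% of all gene symbols of the 3 small RNA lists and 6.3% of annotated protein-coding genes, because the number of genes the authors tested is not given in the sources used here. Of the 24, 17 were lower and 7 higher in the authors' deposited table. Lower genes made up 9.44% of the 180 against 7.07% of the 3-list symbols, where higher genes made up 2.75%. Genes of K562 exons in no glioblastoma list were near the members, with 30 of 214 (14%) listed and 21 of 214 (9.81%) lower. Some of those 214 genes, UBR4 among them, are also members through another exon. The share listed is thus not particular to the members. Lower genes were 70.8% of those listed (interval 50.8 to 85.1%), close to 167 of 232 (72%) over the 3 lists, and 50.7% in the whole table. The median log2 fold change was -0.66 over the 24 genes, -0.72 over those with an exon in all 3 lists and -0.56 over those in K562 and T98G, against -0.47 for the authors' deposited table as a whole. EZH2 itself is not in the table, so neither its knockdown nor the direction of the table could be checked there. The direction, siEZH2 over siGFP, rests on the order of names alone, and if it were the opposite, lower and higher would be exchanged throughout.

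Among genes with an exon in all 3 lists, the authors' deposited table gives the lowest log2 fold change to BTAF1 (-1.19), an ATPase that removes TBP from DNA. PANK3 (-1.10), which starts coenzyme A synthesis, UBR4 (-1.05) and DYNC1H1 (-0.98), the heavy chain of cytoplasmic dynein, followed in the authors' deposited table. ZC3H7B (-0.75), GFPT1 (-0.74), the entry enzyme of hexosamine synthesis, DDB1 (-0.70), SEC31A (-0.66) and CDC42BPA (-0.65) were also lower in the authors' deposited table. FUCA2 (0.80), a fucosidase, IPO5 (0.68) and RABEP1 (0.53) were higher in the authors' deposited table.

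Among genes with an exon in K562 and T98G, HSPA4L (-1.02), a heat shock protein, NBR1 (-0.89), an autophagy receptor, and SLC7A11 (-0.84) were lowest in the authors' deposited table. VPS53 (-0.74), NCOA7 (-0.66), MFN1 (-0.58), which fuses mitochondria, HERC1 (-0.54) and WNK1 (-0.49) were lower there too, in the authors' deposited table. KIF11 (1.34), GNPAT (0.92), an enzyme of ether lipid synthesis, SMYD3 (0.81) and IGIP (0.74) were higher in the authors' deposited table. KIF11 had the largest absolute change of the 24, and it is also a member with 0 exact adapter bases in the window. The authors' table carries no error or p-value for a single gene beyond its adjusted threshold of 0.05.

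**Figure D5:**
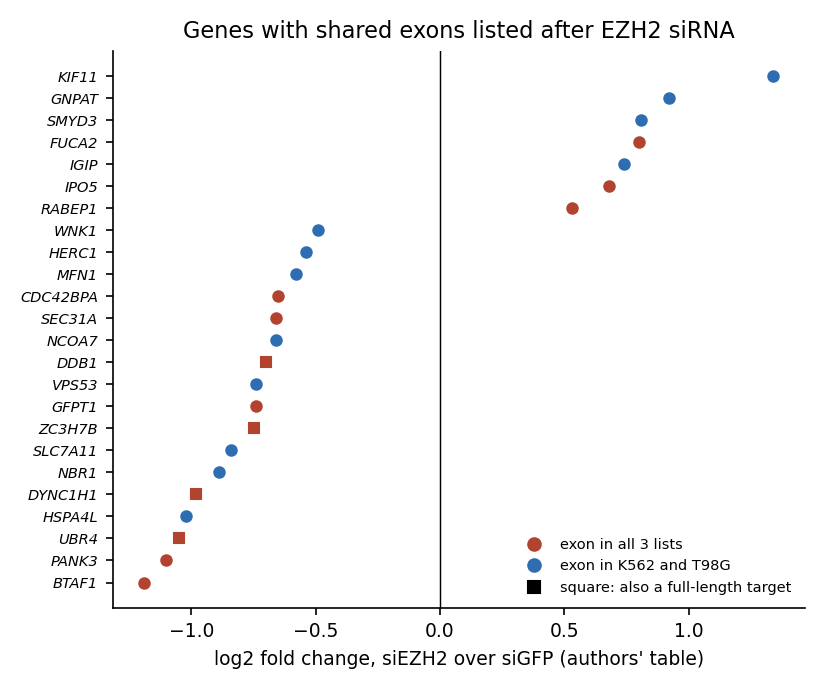
The authors' deposited log2 fold change, siEZH2 over siGFP in U87MG (horizontal axis), for the 24 genes with shared exons that are in the table (rows), coloured by class; squares are genes in the full-length list. It shows 17 genes left of 0 and 7 right of it, from BTAF1 at -1.19 to KIF11 at 1.34, and all 4 squares lie left of 0.

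UBR4, DYNC1H1, ZC3H7B and DDB1 were both lower in the authors' deposited table and in the full-length list. All 4 have their shared exon in all 3 lists. Of genes with K562-only exons, 8 of 214 (3.74%) were both, and of genes with T98G exons outside K562, 31 of 1940 (1.6%). Here it was 4 of 180 (2.22%). These groups share genes: UBR4 has exons in each, and DYNC1H1 and ZC3H7B also have T98G exons outside K562. The shares are thus not of separate genes.

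Among the 182 members, those of LATS1 and NCOR1, both in all 3 lists, bordered an intron in the retained intron list of U87MG. By its name that list holds introns proximal to EZH2 seRNA, so its introns may have been picked for lying near such exons. The adjacency is therefore no independent result. In LATS1 the exon at chr6:149997691-149997873, the sixth of 8, meets an intron of 3141 bp with an authors' score of 1.36. In NCOR1 the exon at chr17:15974723-15974979, the thirtieth of 46, meets an intron of 887 bp with a score of 1.21. The list holds 42 introns, and the share of other listed exons that border one is not given here, so no comparison is made. The scores in that list run from 1.03 to 2.68 with a median of 1.42, so both lie below the middle of the list. What the score measures is not given in the sources used here. Neither gene was in the table of changed genes.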

How the data were processed

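The members and the gene lists were chosen with earlier results of these data known. The small RNA lists came from reads cleaned of adapters (cutadapt), mapped with BWA (hg19) and counted over exons (bedtools), per the labels. DESeq2 then gave the enriched exons and pyicoclip the peaks, per the labels. CASAVA 1.8 is named in the submitters' processing notes. Per the labels, the siRNA reads were aligned with Tophat 2 version 2.0.11 and counted with featureCounts before DESeq2. The authors deposited log2 fold changes for genes named for an adjusted p of 0.05, and siEZH2 over siGFP was read from the order of the names. The retained introns carry a deposited score whose scale is not given in the sources used here. The signed distance in the authors' T98G list was subtracted from the exon middle. The result is a whole base boundary in 2463 of 2573 rows, which were used. Subtraction was preferred to addition because it puts AGAT in more windows. Neither the window share nor the direction of the peak position within the exon is therefore independent of that choice.

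Lists were overlapped by at least 1 bp with Python 3.11.15 and pandas 2.3.3 after a check on simulated data. Coding content came from GENCODE 44 mapped to GRCh37, and sequences from GRCh37. The adapter's bases come from general knowledge of the kit and are not in the labels. Of the 1341 symbols in the siRNA table, 1269 matched annotated protein-coding genes. Columns of single-library values numbered 0. Named genes were EZH2, CCDC136, genes with several shared exons, the 10 largest absolute fold changes of each class, genes at retained introns, up to 15 full-length targets, the longest adapter matches, the 3 widest and 3 narrowest exons, and up to 6 genes of each functional list. Other genes were named after their values were seen, and some items are not reported here. Alternatives covered the overlap rule, the strand, the match by symbol or position, the motif window, the sign of the distance and exons with near copies.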

Additional observations from a re-analysis of the deposited data

How the results depend on the processing

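Of 28 other settings, 13 of them chosen after seeing the data, 24 left the value within 1.5 times the count, the main interval or the quartiles of width. The count of shared exons stayed at 182, and of those in all 3 lists at 78, with 50% overlap, identical ends or the same strand required. Those rules could not change either count, because all 260 pairs had identical ends on the same strand. They are among the 24 and say nothing about how firm the counts are. The counts were 173 and 73 without exons whose 30 peak bases recur in the genome. The AGAT share fell to 3.89% when the distance was added to the exon middle instead of subtracted, and the share in coding sequence was 64.3% when every base had to be coding. The share with at least 8 of 12 adapter bases became 52.8% at 7 of 12 and 14.4% at 9 of 12. Among siEZH2 genes, 4 of 5 (80%) were lower at an absolute log2 fold change of at least 1. No paired analysis was possible because the deposited lists hold no values for single libraries, and for the same reason no replicate could be left out. Depth limits are unknown: an exon missing from the K562 list may reflect its 1 library of each kind.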

Other observations

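Members with an annotated exon of another gene on the opposite strand numbered 9 of 182 (4.95%), against 10 of 215 (4.65%) of K562 exons in no glioblastoma list. They include BRD3 with BRD3OS, NELFCD with CTSZ, and RABEP1 with NUP88. The siRNA libraries were aligned without strand, and how reads over overlapping genes were counted was not examined here. Reads of NUP88, a nuclear pore protein, may thus affect the value of RABEP1 (0.53 in the authors' deposited table) where the genes overlap. The same holds for FUCA2 (0.80 in the authors' deposited table), whose shared exon has an annotated gene without a symbol (ENSG00000278206) on the other strand. The members split almost evenly over the strands, with 90 on the plus and 92 on the minus strand, and lay on 22 chromosomes, 30 of them on chromosome 1.

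Noncoding or pseudogene transcripts gave 7 of the 182 members (3.85%), against 19 of 215 (8.84%) of the K562 exons left out. They include HSP90AA4P, a pseudogene of the HSP90 chaperone family. Of internal members coding throughout, 43 of 114 (37.7%, interval 29.4 to 46.9%) had a width divisible by 3, so that skipping the exon would keep the reading frame. The share was 25 of 56 (44.6%) in all 3 lists and 17 of 57 (29.8%) in K562 and T98G, and 39% in T98G exons not in K562.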
